A study of Mus musculus with 8 samples.

Results

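The TNF receptor superfamily genes examined here were Tnfrsf4 (OX40), Tnfrsf9 (4-1BB), Tnfrsf18 (GITR), Tnfrsf25 (DR3), Cd27, Tnfrsf1a (TNFR1), Tnfrsf1b (TNFR2) and Fas. These 8 genes, of 56980 in the count table, were chosen by symbol as receptors that regulatory T cells (Tregs) are known to carry, and were read across all 8 libraries of the series. Each library was made from Tregs sorted by flow cytometry from the peripheral blood of male C57BL/6j mice, which were 8 weeks old when obtained. The paper defines sorted Tregs as CD4+CD25+ for its suppression assay and names no gate for the RNA-seq sort. The 4 libraries of the HADA (high-altitude de-acclimatization) group came from mice that lived for 28 days under hypobaric conditions equal to 6000 m and then returned to normoxia, and the 4 control libraries from mice that were not in the chamber. The day of sorting after the return is not given in the sources used here. Nothing says that the libraries of a group came from separate animals, so the p-values below measure only the spread between these libraries.

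Receptors of this family bind trimeric ligands of the TNF family and their signalling members fall into 2 classes by their cytoplasmic tails. OX40, 4-1BB, GITR, CD27 and TNFR2 recruit TRAF adaptors and feed the NF-kappaB pathway, while TNFR1, DR3 and Fas carry a death domain and can also reach the caspase cascade. In Tregs the costimulatory members are known for sustaining survival and expansion, and TNFR2, OX40 and GITR are commonly used to recognise activated Tregs.

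Reads could be counted well on only 5 of the 8 genes. Tnfrsf18 and Cd27 were listed at 0 counts in all 8 libraries. The whole counted span of Tnfrsf18 (ENSMUSG00000041954, GRCm39 chr4:156110621-156113352, plus strand) is covered by the lncRNA gene Gm16008 on the opposite strand. The whole span of Cd27 (ENSMUSG00000030336, chr6:125209585-125213973, minus strand) is covered by the span of Vamp1, a gene for a vesicle fusion protein, on the opposite strand, and in part by Mir8113. All 1077 protein-coding genes of the table whose span other genes cover fully were listed at 0 in every library, including all 591 that are covered from the opposite strand only. The 0 of Tnfrsf18 and Cd27 is therefore no measurement of GITR or CD27 transcripts. Foxp3, the transcription factor that defines Tregs, was also listed at 0, and its span is 100% covered by other genes.

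**Figure D1:**
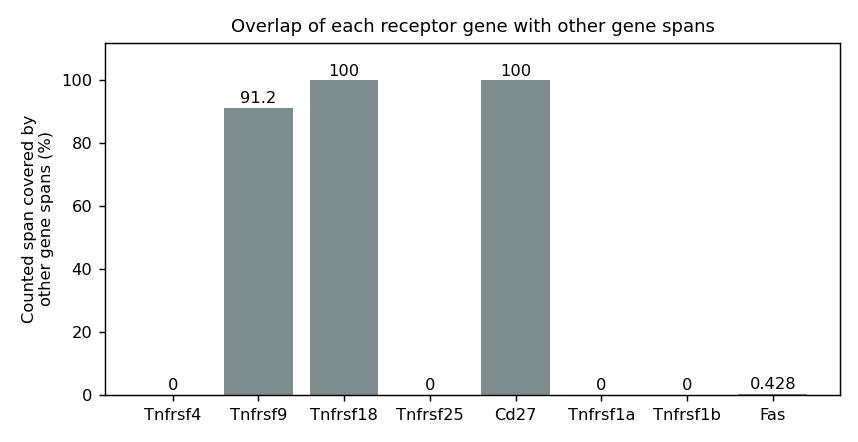
Share of the counted span of each of the 8 receptor genes that other gene spans cover, in percent, with one bar per gene. Tnfrsf18 and Cd27 stand at 100 and Tnfrsf9 at 91.2, and the other 5 genes are at 0 or, for Fas, at 0.428.

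Tnfrsf9 (ENSMUSG00000028965, chr4:150999019-151030559, plus strand) lies for 91.2% of its span inside Camta1 on the opposite strand, which leaves 2760 bases free, of which 152 are exonic. Its counts were 0, 6, 6 and 0 in control replicates 1 to 4 and 292, 4, 0 and 2 in HADA replicates 1 to 4. HADA replicate 1 stood above all others, and the remaining 3 HADA libraries lay in the range of the controls. Tnfrsf9 was below the filter on low counts and was not tested. With these 3 genes set aside, 5 of the 8 members passed the filter, and the counts below are over those 5.

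The genes cluster in the genome: 5 of the 8 lie on chromosome 4, 2 on chromosome 6 and 1 on chromosome 19. Tnfrsf4 (ENSMUSG00000029075, chr4:156098300-156101069, plus strand) ends 9.55 kb before Tnfrsf18. Tnfrsf25 (ENSMUSG00000024793, chr4:152200391-152204576, plus strand) is 1170 kb from Tnfrsf9. Tnfrsf1b (ENSMUSG00000028599, chr4:144940033-144973440, minus strand) is 20.3 kb from Tnfrsf8, another receptor of the family described below. Tnfrsf1a (ENSMUSG00000030341, chr6:125326325-125339447, plus strand) is separated by 35.5 kb from Ltbr, the lymphotoxin beta receptor gene, which in turn is 69.6 kb from Cd27. Fas (ENSMUSG00000024778, chr19:34268066-34305172, plus strand) stands alone.

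The sequence before the counted start is shown for Tnfrsf4, Tnfrsf25 and Tnfrsf1a, the 3 members whose difference between HADA and control passed the test thresholds once control replicate 1 was left out. The first sequence is the last 30 bases before Tnfrsf4 (GRCm39 chr4:156098270-156098299, plus strand), the second the 250 bases before Tnfrsf25 (chr4:152200141-152200390, plus strand) and the third the 250 bases before Tnfrsf1a (chr6:125326075-125326324, plus strand). Capitals mark matches to the motifs searched.

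Tnfrsf4: ttatagccacaccctgcaaGGAAAAACCCc
Tnfrsf25: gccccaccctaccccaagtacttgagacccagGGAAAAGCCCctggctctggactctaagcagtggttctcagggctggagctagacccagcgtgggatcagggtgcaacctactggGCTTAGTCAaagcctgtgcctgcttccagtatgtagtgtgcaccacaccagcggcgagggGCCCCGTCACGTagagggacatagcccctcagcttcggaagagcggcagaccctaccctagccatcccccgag
Tnfrsf1a: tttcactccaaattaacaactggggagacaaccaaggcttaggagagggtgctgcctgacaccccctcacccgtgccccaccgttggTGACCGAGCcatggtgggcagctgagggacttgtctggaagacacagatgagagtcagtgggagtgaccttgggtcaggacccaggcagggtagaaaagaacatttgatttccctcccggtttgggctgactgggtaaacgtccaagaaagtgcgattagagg

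The letters searched on both strands were GGG and TTTCC with a gap of 2 bases between them for NF-kappaB, TGACNNNGC for the antioxidant response element bound by NRF2, ACGTG for the hypoxia response element, TGANTCA for AP-1, TTCNNNGAA for STAT factors and TGTTTAC for forkhead factors, in the 250 bases before the counted start. The NF-kappaB letters stood before 2 of the 8 members, against 1.56% of 16446 protein-coding genes. They began 11 bases before Tnfrsf4 and 218 bases before Tnfrsf25, both read on the minus strand. The antioxidant response element letters stood before 2 of 8 members, against 10.5% of all. They were found once before Tnfrsf1a, beginning at 163 bases, and at 133 and 73 bases before Tnfrsf25, where the nearer match overlaps a hypoxia response element match that begins at 66 bases. The hypoxia response element letters stood before 3 of 8 (Tnfrsf4, Tnfrsf25 and Fas), against 18.9%, and those on opposite strands before Tnfrsf4 and Fas overlap each other. The STAT letters stood before 2 (Tnfrsf1b and Fas; 6.76% of all), the AP-1 letters before 1 (Fas; 5.52%) and the forkhead letters before none of the 8 (2.68%). Annotated exons held all 250 bases before Tnfrsf1b and Tnfrsf18, so the STAT match before Tnfrsf1b lies in an exon. They held 127 of the bases before Tnfrsf9, 65 before Fas, 25 before Tnfrsf4 and 15 before Cd27. Before Tnfrsf25 and Tnfrsf1a they held 0. These are matches of letters and were not tested for binding.

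The 8 libraries differed in depth and in makeup. Total counts were between 22929193 and 28240337 in HADA and between 14452433 and 22584062 in control replicates 2 to 4, but 1477431 in control replicate 1. Mitochondrial genes took 5.02% to 7.59% of counts in HADA and 0.636% to 3.81% in control. The density on olfactory and vomeronasal receptor genes, which blood cells are not known to express, was first taken without scaling for depth. It was 1.99 to 5.29 counts per kb in HADA, 3.49 to 10.8 in control replicates 2 to 4 and 0.0789 in control replicate 1. Without the 5% of these genes of highest density it was 0.989 to 2.10 in HADA, 3.21 to 10.6 in control replicates 2 to 4 and 0.0712 in control replicate 1. These densest genes thus made up a larger part of the density in each HADA library than in any control library. The unscaled density over all these receptor genes was taken as a background per kb in each library. The count expected at that density on each gene's uncovered span was set beside the observed count. Edar and Eda2r, other receptor genes of the TNF family, fell under it in every library, so it is a reference and not a floor. Levels are given as CPM, that is counts scaled to a common library size after TMM normalization, and with reads counted over whole gene spans they include introns. As CPM per kb, but scaled by total counts without TMM, the receptor density was 0.0749 to 0.191 in HADA. It was 0.162 to 0.745 in control replicates 2 to 4. On that scale control replicate 1, at 0.0534, was the lowest but lay near HADA replicate 4 (0.0749). In gene levels, control replicate 1 stood above the other controls for Tnfrsf4, Tnfrsf25, Tnfrsf1a, Tnfrsf1b and Il2ra, where it lay near or above the HADA libraries. For Fas it lay between other controls, and for Tnfrsf8 it stood with them. Its group was taken from its label, whether that label is right was not tested, and the results that rest on it are given with and without it.

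Tnfrsf4, the gene for the OX40 receptor that prolongs T cell survival through TRAF2, was abundant in every HADA library. Its counts were 3423, 2223, 4484 and 6156 in HADA replicates 1 to 4, or 135, 93.1, 264.9 and 370.1 CPM. In control replicates 1 to 4 the counts were 194, 11, 14 and 8, or 120.6, 0.344, 0.489 and 0.464 CPM. Control replicates 2 to 4 were thus near 0, while control replicate 1, from 194 counts (95% Wilson interval 104.7 to 138.8 CPM, counting error only), lay inside the range of HADA, above HADA replicate 2. Among the controls, that library alone overlapped with HADA. At the background density 29.8, 22.8 and 9.67 counts were expected in control replicates 2 to 4, more than the 11, 14 and 8 observed, and 0.218 in control replicate 1. The log2 fold change of HADA over control was 2.85 (SE 1.67), with an adjusted p of 0.268 (edgeR's quasi-likelihood test, Benjamini-Hochberg adjustment over 21991 genes).

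Tnfrsf25, which encodes DR3, the death domain receptor for the cytokine TL1A known for expanding Tregs, varied most within HADA. It had 2023, 14, 202 and 622 counts in HADA replicates 1 to 4 (79.8, 0.586, 11.9 and 37.4 CPM) and 99, 3, 2 and 4 in control replicates 1 to 4 (61.5, 0.0939, 0.0699 and 0.232 CPM). HADA replicate 2 lay near the low controls, with 14 counts beside the 18.4 expected at the background density (8.43 without the densest 5% of receptor genes). Control replicate 1 lay among the high HADA libraries. The log2 fold change was 1.10 (SE 1.86), with an adjusted p of 0.699 by the same edgeR test. Without HADA replicate 1 the log2 fold change was -0.15, so its direction rested on that library. The coefficient of variation within HADA was 108%.

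Tnfrsf1a, the gene of the widely expressed TNF receptor with a death domain, showed the same division. Its counts were 420, 430, 606 and 20 in HADA replicates 1 to 4 (16.6, 18.0, 35.8 and 1.20 CPM) against 35, 30, 11 and 5 in control replicates 1 to 4 (21.8, 0.939, 0.384 and 0.290 CPM). HADA replicate 4 fell to the level of the low controls with 20 counts beside a background of 26.1 (13.0 without the densest 5% of receptor genes), and control replicate 1 exceeded 3 of the 4 HADA libraries. The log2 fold change was 1.71 (SE 1.41), with an adjusted p of 0.415 by the edgeR test.

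Tnfrsf1b, which encodes TNFR2, the TNF receptor without a death domain that Tregs carry at high levels, was the most even member within HADA. It had 1358, 1600, 734 and 962 counts in HADA replicates 1 to 4 (53.6, 67.0, 43.4 and 57.8 CPM) and 155, 125, 70 and 544 in control replicates 1 to 4 (96.3, 3.91, 2.45 and 31.5 CPM). Control replicate 1 was above all 4 HADA libraries, and control replicate 4 was above its background of 117 counts, whereas control replicates 2 and 3 were under theirs (359 and 275). The log2 fold change was 0.74 (SE 1.06), with an adjusted p of 0.647 by the edgeR test. With all libraries drawn down to the total of the smallest, it was -0.25. The coefficient of variation within HADA was 17.7%.

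Fas, the death receptor that triggers apoptosis through FADD and caspase-8, was as even within HADA, at 18.1%, but not within control. It had 2107, 2711, 2184 and 1699 counts in HADA replicates 1 to 4 (83.1, 113.5, 129 and 102.1 CPM) and 87, 3539, 198 and 56 in control replicates 1 to 4 (54.1, 110.8, 6.92 and 3.25 CPM). All 4 HADA libraries were above control replicate 1, and here control replicate 2 was the library that reached the HADA range. The log2 fold change was 1.29 (SE 1.01), with an adjusted p of 0.394 by the edgeR test. Without control replicate 2 it was 2.35 (adjusted p = 0.269 by edgeR). The direction did not hold once background was subtracted, when the log2 fold change was -0.67, nor with libraries drawn down to the smallest total, when it was -0.14.

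**Figure D2:**
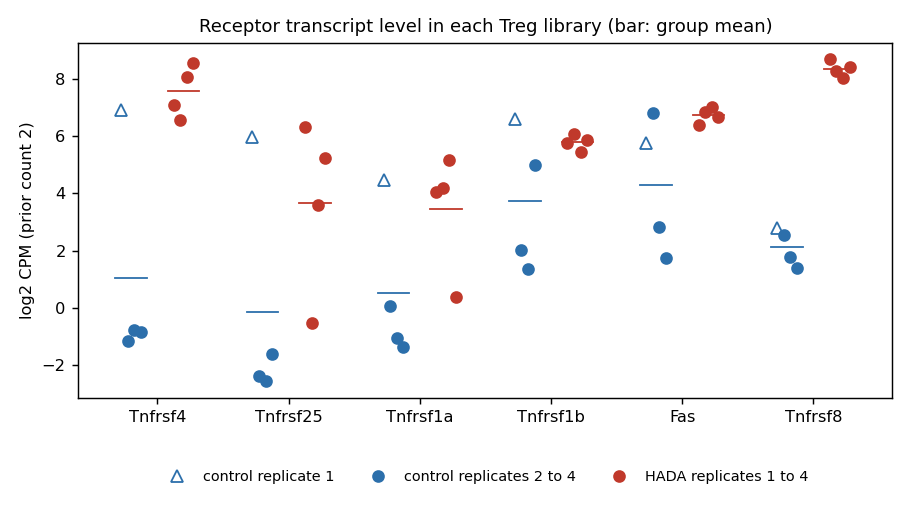
Level of the 5 tested receptor genes, and of Tnfrsf8, in each library as log2 CPM with a prior count of 2. HADA libraries are filled red circles, control replicates 2 to 4 filled blue circles and control replicate 1 an open triangle, with a short bar at each group mean. Control replicate 1 sits at 6.91 for Tnfrsf4, among the HADA libraries, but with the other controls for Tnfrsf8.

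The plot of levels shows the 5 tested receptors with the HADA mean above the control mean in each case and the open triangle of control replicate 1 at HADA height for Tnfrsf4, Tnfrsf25, Tnfrsf1a and Tnfrsf1b. Of the 5, 0 passed the thresholds (a log2 fold change beyond 1 with an adjusted p under 0.05), where 2.13% of all 21991 genes tested did (363 higher and 105 lower in HADA). Of the 5, 0 reached an unadjusted p below 0.05 in edgeR, where 26.7% of all genes did (2647 higher and 3233 lower), and 0 passed with DESeq2, which called 30.5% of all genes (11.2% higher and 19.3% lower). The 5 log2 fold changes from all 8 libraries were all positive, though those of Tnfrsf1b, Tnfrsf25 and Fas turned negative under the alternatives given above, with a median of 1.29 against 0.01 over all genes tested. In 0 of the 5 were the groups apart, with every HADA library above or below every control library, where 14.8% of all genes were (9.13% with HADA above and 5.7% with HADA below).

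Without control replicate 1, 3 of the 5 rose in HADA. The log2 fold changes were 9.08 for Tnfrsf4 (SE 0.95), 8.07 for Tnfrsf25 (SE 1.77) and 5.19 for Tnfrsf1a (SE 1.18), with adjusted p of 0.00422, 0.0158 and 0.0172 (edgeR's quasi-likelihood test, Benjamini-Hochberg adjustment). The values were 2.24 for Tnfrsf1b (SE 0.98) and 1.60 for Fas (SE 1.14), which did not pass (adjusted p of 0.103 and 0.285). These 3 of 5 stand against 15.5% of 24048 genes called higher and 19.7% called lower in HADA in that fit (35.1% in all). In 4 of the 5, all but Fas, the HADA libraries then lay above the remaining controls, as they did for 18.4% of 21991 genes. The fold changes of all 3 in this fit are set against controls whose counts were under the background.

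**Figure D3:**
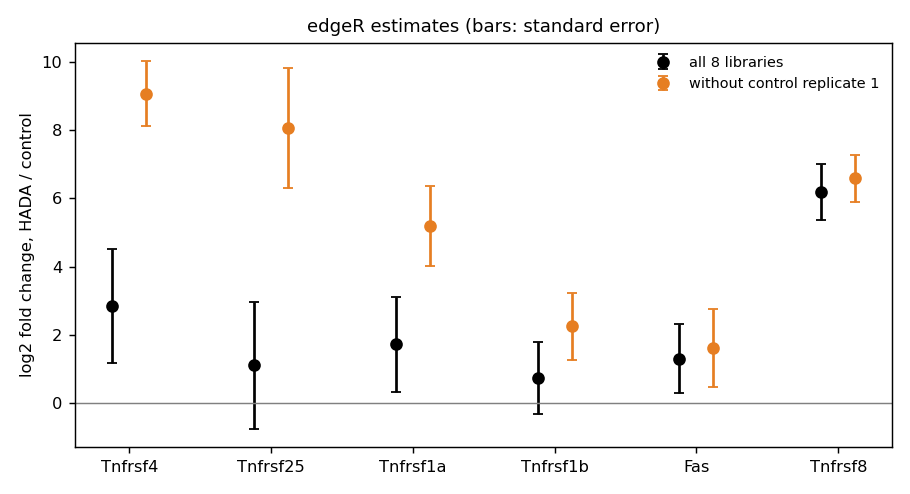
log2 fold change of HADA over control with its standard error for the 5 tested receptors and Tnfrsf8, in black from all 8 libraries and in orange without control replicate 1. The estimate for Tnfrsf4 moves from 2.85 to 9.08 and that for Tnfrsf8 from 6.20 to 6.59.

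The plot of fold changes places the effect of the one library beside each estimate, and the shift was smaller for Fas (1.29 to 1.60) than for Tnfrsf4 or Tnfrsf25. The plot of counts against background shows the same libraries on another scale. Observed counts were above the background in all 4 HADA libraries for Tnfrsf4, Tnfrsf1b and Fas and in 3 of 4 for Tnfrsf1a and Tnfrsf25, or in 4 of 4 for both without the densest 5% of receptor genes. Control replicates 2 to 4 were all under it for Tnfrsf4, Tnfrsf1a and Tnfrsf25.

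**Figure D4:**
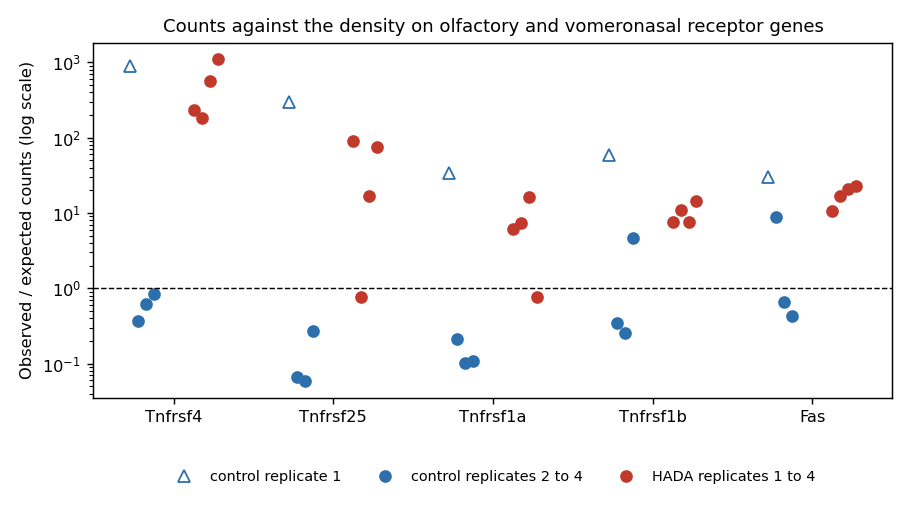
Observed counts divided by the counts expected from the density on olfactory and vomeronasal receptor genes, on a log axis, for the 5 tested receptors in each library. The dashed line at 1 marks equality; for Tnfrsf4 the HADA libraries (red) run from 183 to 1116, control replicate 1 (triangle) is at 888 and control replicates 2 to 4 (blue) are at 0.827 or less.

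Counts over whole spans, introns included, were divided by the exon length, in CPM per kb. Intronic reads can therefore raise genes with long introns, and how much they add was not tested. Exons make up 2254 of the 37107 bases of Fas and 1365 of the 2770 bases of Tnfrsf4. On that scale Tnfrsf4 was the most abundant of the 5 in HADA, at 158 ± 92.5 (SD, n = 4, range 68.2 to 271). Fas followed at 47.5 ± 8.58 (36.9 to 57.2), and the libraries of these genes did not overlap each other. Tnfrsf1b at 14.5 ± 2.57 (11.4 to 17.6) lay below every Fas library. Tnfrsf25 at 14.2 ± 15.4 and Tnfrsf1a at 6.26 ± 4.95 did not differ from Tnfrsf1b beyond their spread, since their ranges overlapped. In control replicate 1 the order was Tnfrsf4 (88.3), Tnfrsf25 (27.0), Tnfrsf1b (25.2), Fas (24.0) and Tnfrsf1a (7.61).

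The members did not vary together within HADA. HADA replicate 4 had the highest Tnfrsf4 and the lowest Tnfrsf1a, replicate 3 the highest Fas and the lowest Tnfrsf1b, and replicate 1 the highest Tnfrsf25 and Tnfrsf9 and the lowest Fas. The genes whose log2 CPM followed each member most closely over the 8 libraries, among 16446 protein-coding genes, were Usp5, Lypla2 and Lsm10 for Tnfrsf4 (Pearson r of 0.998 each). They were Sfn, Cdk5 and Wiz for Tnfrsf25 (0.975, 0.974 and 0.967), Dctn1, Txndc5 and Vps16 for Tnfrsf1a (0.994, 0.993 and 0.987), Mapk14, Tgfbr1 and Smarca5 for Tnfrsf1b (0.992, 0.991 and 0.986) and Arpc1a, Pcmtd2 and Gcnt1 for Fas (0.989, 0.977 and 0.970). All libraries share the contrast of HADA with control and the difference in depth, so these values describe a pattern only.

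Among 20 other receptors of the family, of which 19 were tested, 2 rose in HADA and 0 fell, against 1.65% and 0.477% of all genes. Without control replicate 1, 4 rose and 4 fell, against 15.5% and 19.7% of all genes in that fit. DESeq2 with all 8 libraries also gave 4 higher and 4 lower, against 11.2% and 19.3%. Tnfrsf8 (ENSMUSG00000028602), which encodes CD30, a receptor of activated lymphocytes, had 413.3, 310.4, 260.4 and 337.5 CPM in HADA replicates 1 to 4 and 6.84, 5.67, 3.28 and 2.49 CPM in control replicates 1 to 4. Every HADA library was far above every control library, and control replicate 1, with 11 counts, stood with the other controls. Its log2 fold change was 6.20 (SE 0.83, adjusted p = 0.00693 by edgeR's quasi-likelihood test), and it passed the thresholds without each of the 8 libraries in turn. The call ended with background subtracted (8.44, adjusted p = 0.0800 in edgeR; 8.27, adjusted p = 0.0523 without the densest 5%) and with libraries drawn down to the smallest total (4.34, adjusted p = 0.0574 in edgeR). The value without control replicate 1 was 6.59 (adjusted p = 0.00422 in edgeR). Its counts were above the background in 4 of 4 HADA libraries and under it in control replicates 2 to 4. Tnfrsf12a, the receptor for TWEAK, also rose, by 4.69 on the log2 scale (SE 1.07, adjusted p = 0.0448 in edgeR), from 0 to 0.313 CPM in control to 0.789, 7.16, 11.1 and 1.02 CPM in HADA replicates 1 to 4. Its HADA level was low and uneven, and the call ended with DESeq2's size factors (adjusted p = 0.0535 in edgeR). It also ended without any 1 of HADA replicates 1, 2 and 3 and control replicates 2, 3 and 4 (adjusted p of 0.0594, 0.0744, 0.0738, 0.104, 0.154 and 0.136 in edgeR).

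Of 17 ligands, 11 were tested and 0 passed the thresholds in either direction (2 higher and 2 lower at an unadjusted p below 0.05 in edgeR, and likewise by DESeq2). Over all genes, 2.13% passed the thresholds in edgeR, 26.7% had an unadjusted p below 0.05 in edgeR and 30.5% passed with DESeq2. Tnfsf18, the ligand of GITR, was at 0.671, 0.796, 0.413 and 0.601 CPM in HADA replicates 1 to 4 and 1.24, 4.38, 4.19 and 2.78 CPM in control replicates 1 to 4. The value of control replicate 1 rests on 2 counts, under the floor of 3 counts, and control replicates 2 to 4 were above all HADA libraries. The log2 fold change was -2.39 (SE 0.58, adjusted p = 0.0536 by edgeR). It was -2.45 without control replicate 1 (adjusted p = 0.00689 by edgeR). At the background density 56.3, 46.7, 30.5 and 21.2 counts were expected in HADA replicates 1 to 4, more than the 17, 19, 7 and 10 observed. In control replicates 2 to 4, 114, 87.7 and 37.1 were expected and 140, 120 and 48 were observed. Fasl, the ligand of Fas carried by cytotoxic lymphocytes, was at 0.276, 30.1, 6.91 and 92.8 CPM in HADA replicates 1 to 4 and 0, 1.63, 0.978 and 1.28 CPM in control replicates 1 to 4. HADA replicate 1 lay among the controls, and the log2 fold change was 4.93 (SE 1.48, adjusted p = 0.0925 by edgeR). Marker genes of NK and cytotoxic cells summed to between 34.9 and 944 CPM in HADA, highest in replicate 4, where Fasl was highest too, and to between 4.61 and 42.4 CPM in control. Their part in the Fasl values was not tested.

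Downstream of the receptors, 1 of 19 adaptor and kinase genes rose and 0 fell, beside 1.65% and 0.477% of all genes. The list median log2 fold change was 0.96. Tab1, a subunit of the TAK1 kinase complex that activates IKK, was at 36.9, 52.7, 42.7 and 18.0 CPM in HADA replicates 1 to 4 and 1.24, 2.32, 1.92 and 1.10 CPM in control replicates 1 to 4. The groups were apart, and the log2 fold change was 4.48 (SE 0.86, adjusted p = 0.0244 by edgeR). The call ended without any 1 of HADA replicates 1 and 2 and control replicates 2, 3 and 4 (adjusted p of 0.0730, 0.0521, 0.0713, 0.122 and 0.0898 in edgeR) and with background subtracted (12.06, adjusted p = 0.103 in edgeR). Ikbkg, the regulatory IKK subunit NEMO, was at 45.8, 108.6, 74.1 and 113.5 CPM in HADA and 19.3, 4.67, 3.53 and 2.61 CPM in control, also apart, with a log2 fold change of 3.55 (SE 0.94, adjusted p = 0.0704 by edgeR). Without control replicate 1, 11 of the 19 rose and 0 fell, beside 15.5% of all genes higher in that fit, and Ikbkg was among them (4.72, adjusted p = 0.00609 by edgeR).

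Of 10 NF-kappaB subunits and inhibitors, 0 passed the thresholds in edgeR (2 higher at an unadjusted p below 0.05, and 2 higher by DESeq2). Among all genes tested, 2.13% passed in edgeR, 26.7% reached that unadjusted p in either direction and 11.2% were higher by DESeq2. Nfkbia, the inhibitor that NF-kappaB itself induces, was at 280.8, 182.3, 577.5 and 972.1 CPM in HADA replicates 1 to 4 and 159.1, 0.532, 0.664 and 18.5 CPM in control replicates 1 to 4. All HADA libraries were above all controls, with control replicate 1 the nearest, and the log2 fold change was 3.51 (SE 1.52, adjusted p = 0.170 by edgeR). Cyld, a deubiquitinase that restrains the pathway, had a log2 fold change of 2.14 (SE 0.96, adjusted p = 0.182 by edgeR), with 215 and 192 CPM in HADA replicates 1 and 2 beside 220.6 CPM in control replicate 1. Without control replicate 1, 5 of these 10 rose and 0 fell, beside 15.5% and 19.7% of all genes in that fit. Nfkbia (6.36, adjusted p = 0.0254 by edgeR) and Cyld (adjusted p = 0.00872 by edgeR) were among the 5.

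Of 9 death pathway genes, 8 were tested and 0 passed the thresholds in edgeR (1 higher at an unadjusted p below 0.05, and 1 higher by DESeq2). By the same measures, 2.13% of all genes passed in edgeR, 26.7% reached that unadjusted p in either direction and DESeq2 called 11.2% higher. Siva1, an apoptosis factor first found as a partner of CD27, was at 20.4, 32.2, 34.9 and 28.6 CPM in HADA replicates 1 to 4 and 9.32, 0.344, 0.280 and 0.811 CPM in control replicates 1 to 4. The groups were apart, with control replicate 1 again the nearest control, and the log2 fold change was 3.61 (SE 1.22, adjusted p = 0.115 by edgeR). It was 6.05 without control replicate 1 (adjusted p = 0.00465 by edgeR). Cflar, which encodes the caspase-8 inhibitor cFLIP, had a log2 fold change of -1.39 (SE 0.84, adjusted p = 0.280 by edgeR), with overlapping groups. Over the 5 lists, 67 of 75 genes were tested, 3 rose and 0 fell, beside 1.65% and 0.477% of all genes. The median was 0.94. Without control replicate 1, 24 rose and 6 fell, beside 15.5% and 19.7% of all genes in that fit.

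**Figure D5:**
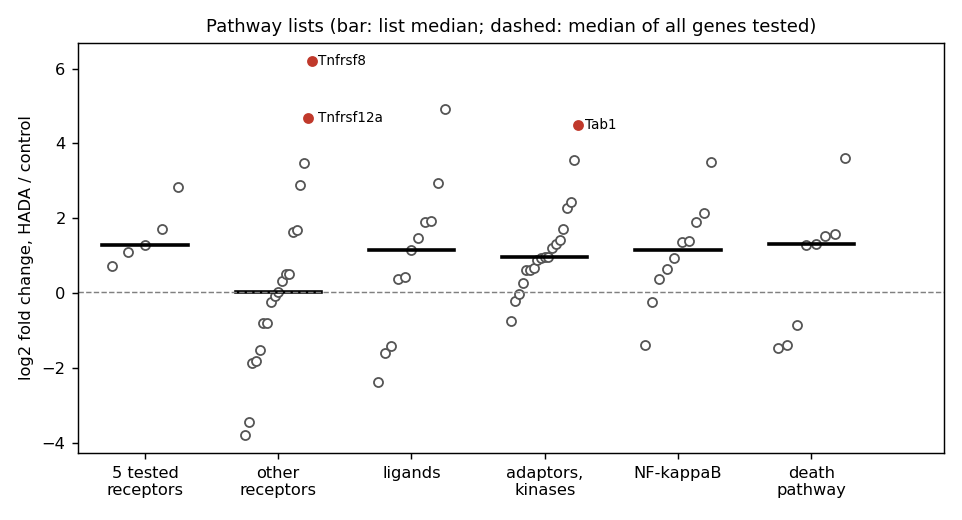
log2 fold change of HADA over control for each tested gene of the receptor set and of the 5 pathway lists, with one circle per gene, filled where the gene passed the thresholds, and a bar at each list's median. The dashed line is the median of all genes tested. Tnfrsf8, Tnfrsf12a and Tab1 are the 3 filled circles, and the median of the other receptors, at 0.03, lies on the dashed line.

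The plot of the pathway lists shows medians above that of all genes for 4 of the 5 lists, from 0.96 to 1.31. In these bulk libraries a lower share of a cell type and less RNA per cell cannot be told apart, and the makeup of the sort moved with the groups. The 8 genes listed as Treg markers were Foxp3 (at 0), Il2ra, Ctla4, Ikzf2, Cd4, Cd3e, Cd3d and Cd3g. They summed to between 2043 and 5486 CPM in HADA and to between 290 and 1522 CPM in control, highest in control replicate 1. Cd4 and the Cd3 genes are not particular to Tregs, and Cd3g alone was at 548 to 1792 CPM in HADA. The sum is therefore no measure of Treg content alone. Il2ra encodes CD25, part of the paper's definition of Tregs in its suppression assay. Its level was 309.2, 162.9, 286.8 and 747.6 CPM in HADA replicates 1 to 4 and 177.7, 10.5, 7.23 and 59.4 CPM in control replicates 1 to 4. Control replicate 1 lay within the HADA range for Il2ra as it did for Tnfrsf4, and the log2 fold change was 2.57 (SE 1.05, adjusted p = 0.156 by edgeR), or 3.98 without control replicate 1 (adjusted p = 0.0261 by edgeR). Cd4 (0.63, SE 1.14, adjusted p = 0.721 by edgeR) and Cd3e (1.37, SE 1.05, adjusted p = 0.382 by edgeR) overlapped between the groups, but control replicate 2 held only 3.73 and 1.41 CPM of them.

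Markers of other blood cells were present as well. The 8 myeloid markers summed to between 1610 and 4321 CPM in HADA and between 49.8 and 1849 CPM in control, the 5 B cell markers to between 916 and 3011 CPM and between 97.4 and 2379 CPM, and the 4 platelet markers to between 267 and 1661 CPM and between 42.3 and 469.8 CPM. In each of these lists control replicate 1 was the highest control. The 5 erythroid markers summed to between 144 and 2806 CPM in HADA and between 1023 and 28265 CPM in control, highest in control replicate 1. HADA lay above every control for 2 of 7 tested myeloid, 1 of 5 NK and cytotoxic, 1 of 4 platelet and 0 of 4 B cell markers. Over all genes that share was 9.13%. For 1 of 4 tested erythroid markers HADA lay below every control, beside 5.7% of all genes. The remaining tested markers of these lists overlapped between the groups. Cd8b1, Tyrobp and Fcer1g, which did not overlap, are named here after their values were seen. Cd8b1, a chain of the CD8 coreceptor of cytotoxic T cells, was at 28.95, 14.2, 45.7 and 109.4 CPM in HADA replicates 1 to 4 and 0.621, 2.35, 1.26 and 1.85 CPM in control replicates 1 to 4, and rose by 4.97 on the log2 scale (SE 1.003, adjusted p = 0.0301 by edgeR). Tyrobp and Fcer1g, signalling adaptors of myeloid and NK cells, were at 434 to 585 CPM and 382 to 931 CPM in HADA and at 1.72 to 79.5 CPM and 1.002 to 140 CPM in control, with every HADA library above every control library. Their log2 fold changes were 4.06 (SE 1.04, adjusted p = 0.0630 by edgeR) and 3.48 (SE 1.18, adjusted p = 0.116 by edgeR). Of the defining markers, Ms4a1 of B cells and Alas2 of erythroid cells were listed at 0 in every library. Other genes cover 100% of both spans, so, as for Tnfrsf18 and Cd27, that 0 is no measurement of their transcripts. TNFR2, Fas and CD30 are also carried by other leukocytes, and the part of these cells in the receptor values was not tested.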

How the data were processed

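RNA-seq was analysed from 8 libraries, grouped and numbered by their labels. Per the labels and the methods, the authors made cDNA with a low-input kit, used Trimmomatic for trimming and STAR for alignment to GRCm39, and deposited raw featureCounts counts. Versions and strand settings are not given in the sources used here. The length column equals the gene span for 100% of genes. Symbols came from GENCODE vM39 (56236 of 56980 identifiers, 98.7%), and the letters before the counted starts from the same GRCm39 genome. Coordinates are those of the deposited table.

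HADA and control were compared with edgeR 4.0.16 (TMM, filterByExpr, quasi-likelihood test, no covariates, R 4.3.3) on 21991 genes, with Benjamini-Hochberg adjustment over all of them. The common dispersion was 0.805. SE is the log2 fold change divided by the square root of F. The methods of the study name DESeq2, and version 1.42.0 was run as an alternative. The others were DESeq2's size factors, a minimum of 10 counts in every library, no filter, libraries drawn down to 1477431 counts, background subtracted (1558 receptor genes that no other gene overlaps, counts per kb), the replicate block, no fold threshold and each library left out. Background without the 5% densest genes (1480 left) was chosen after seeing the data. The fit was tested on simulated data before use. There edgeR recovered the changed genes at a lower dispersion but not at the one measured here. At the measured dispersion many of DESeq2's calls on simulated data were false. The simulation gave every gene the same dispersion and changed few genes, so that false share need not hold for these data. Because edgeR missed changed genes there, a gene that it did not call is not shown to be unchanged.

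The members and lists were chosen with earlier results of these data known. Text names all members, each pathway list gene past the thresholds, the 2 smallest p per pathway list, 4 genes that check the sort and the 3 genes most like each tested member. Wilson intervals (95%) and the floor of 3 counts (1.86 CPM for Tnfrsf9 in control replicate 1) cover counting error only.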

Additional observations from a re-analysis of the deposited data

Results flagged for a closer look

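In 3 cases 1 library of a group of 4 stood far from the other 3 on the log2 CPM scale (Dixon's test), among 38 groups examined, of which chance gives about 1.9. All 3 were control replicate 1, the library with 1477431 counts. Tnfrsf4 was at 6.91 there and between -1.17 and -0.77 in the other controls. Tnfrsf25 was at 5.95 there and between -2.57 and -1.60 in the others. Fasl was at -3.34 there, from 0 counts, and between 0.11 and 0.79 in the others. The floor of 3 counts in that library, 1.86 CPM, is above the Fasl level of the other controls (0.978 to 1.63 CPM). Its 0 therefore cannot be told apart from their levels, and the part of depth in it was not tested.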

How the results depend on the processing

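The count of tested members past the thresholds was 0 in 16 of 17 alternatives. It was 3 without control replicate 1 (Tnfrsf4 9.08, Tnfrsf25 8.07 and Tnfrsf1a 5.19 on the log2 scale), so it ran from 0 to 3 over the libraries left out. Tnfrsf4, Tnfrsf25 and Tnfrsf1a were not tested where every library needed at least 10 counts, nor was Tnfrsf1a with libraries drawn down. They could not pass there. Tnfrsf4 and Tnfrsf1a kept a positive log2 fold change in every fit that gave them one (2.41 to 9.08 and 1.18 to 5.19). Tnfrsf1b turned to -0.25 with libraries drawn down, Tnfrsf25 to -0.15 without HADA replicate 1, and Fas to -0.67 and -0.35 with background subtracted, from all receptor genes and without the densest 5%, and to -0.14 with libraries drawn down. The cause was not tested. Tnfrsf8 kept its direction in all 16 fits (4.34 to 8.44) but lost its call with background subtracted (8.44, adjusted p = 0.0800), without the densest 5% (8.27, adjusted p = 0.0523) and with libraries drawn down (4.34, adjusted p = 0.0574), all by edgeR. The floor of 3 counts is highest, in CPM, in control replicate 1.

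Over all genes, 363 rose and 105 fell. DESeq2 gave 2457 and 4247 (lists 12 and 6), at least 10 counts in every library 93 higher (lists 1 and 1), background subtracted 92 higher (lists 0 and 2), without the densest 5% 757 higher (lists 2 lower), libraries drawn down 62 and 52 (lists 0 and 1) and no filter 54 lower. With 1 library left out, 28 to 3716 rose and 1 to 4732 fell (lists 1 to 24 higher and 0 to 6 lower), the most without control replicate 1. The replicate block gave 158 and 11, 0 members past the thresholds, and ended the call of Tab1 (4.45, adjusted p = 0.0746 by edgeR). Libraries with the same number did not deviate together (correlations of -0.21, 0.25, -0.08 and -0.0032), and only replicate 2 correlated best with its own number.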

Other observations

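Other members of the family, chosen after their values were seen, went in both directions. Tnfrsf26, a mouse receptor gene with the close relatives Tnfrsf22 and Tnfrsf23, with which reads may be shared, was at 104, 50.6, 347.2 and 169.8 CPM in HADA replicates 1 to 4 and 307.6, 925.8, 1581 and 4558 CPM in control replicates 1 to 4, with a log2 fold change of -3.46 (SE 0.96, adjusted p = 0.0787 by edgeR's quasi-likelihood test). HADA replicate 3 lay above control replicate 1. Tnfrsf14, the receptor HVEM, was at 1.85, 0.838, 0.768 and 1.56 CPM in HADA and 1.24, 15.0, 30.4 and 22.7 CPM in control, with control replicate 1 in the HADA range (log2 fold change -3.79, SE 0.97, adjusted p = 0.0628 by edgeR). Tnfrsf21, the death receptor DR6, was at 134.5, 109.7, 116 and 83.6 CPM in HADA and 21.1, 15.7, 13.1 and 10.4 CPM in control, with no overlap (log2 fold change 2.88, SE 0.73, adjusted p = 0.0618 by edgeR). These 3 genes missed the threshold in edgeR with all 8 libraries, but passed with DESeq2 (adjusted p of 0.000152, 4.86e-05 and 1.43e-05), and Tnfrsf26 also passed in edgeR with background subtracted (-4.67, adjusted p = 0.0301). All 3 passed in edgeR without control replicate 1 (adjusted p of 0.0191, 0.00593 and 0.00913). Ltb, which encodes lymphotoxin beta, was at 1932, 1272, 3838 and 3836 CPM in HADA and 869.4, 4.54, 80.3 and 452.2 CPM in control (log2 fold change 2.95, SE 1.16, adjusted p = 0.146 by edgeR), and its groups did not overlap.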
